A study of Arabidopsis thaliana with 12 samples.

Results

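The 3 libraries of pkl seedlings were compared with the 3 libraries of wild-type (WT) seedlings of Arabidopsis thaliana, 6 of the 12 libraries of the series, over all 64791 rows of the expression table, which hold 33602 genes and 31189 transposable elements (TEs). The libraries were taken by their genotype label alone, and no measured value entered the choice. The pkl seedlings carried the pkl-1 allele of PICKLE (PKL) in the Columbia background, and the WT seedlings were Columbia plants without it. Seedlings of both genotypes were 2 weeks old and came from 1/2 MS plates, and whole seedlings were used, so a lower level in bulk RNA cannot be told apart as fewer cells of a type or less RNA per cell. A single pkl allele was measured. The other 6 libraries came from nrpd1-3 and nrpe1-11 seedlings, which lack the largest subunits of RNA polymerases IV and V, the core enzymes of RNA-directed DNA methylation (RdDM). They shared the estimate of the spread and are given beside pkl where its changes were read against them. No source says that the replicates came from separate sets of plants, so p-values here measure the spread between these libraries only.

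PKL is an ATP-dependent chromatin remodeler of the CHD family, related to the animal protein Mi-2. It is best known for keeping embryonic and seed genes silent after germination, and it acts on many loci that carry the Polycomb mark H3K27me3. The question of the comparison was which genes and TEs PKL holds down or keeps active in young plants.

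PKL itself (AT2G25170) measured 20.1, 21.3 and 26.6 RPKM in pkl, against 16.3, 16.1 and 22.5 RPKM in WT, where RPKM is reads scaled to the length of the feature and the size of the library. The ranges overlapped, and the difference of 0.31 ± 0.16 (SE) on the log2 scale did not pass the test (adjusted p = 0.395). The transcript was thus present in the mutant at a WT-like or higher level, and its level does not check the pkl label.

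Library totals lay between 15966707 and 21475250 reads in pkl and between 15242073 and 19416098 reads in WT, and the lowest total of the series was 7204299 reads, in nrpe1 replicate 2. Because 1 read gives a known RPKM for each feature, whole reads could be recovered for 100% of the 28130 features above 0. The first principal component (28.0% of the variance) set replicate 1 of every genotype apart from replicates 2 and 3, and the second (20.2%) set pkl apart from the other genotypes. Samples with the same replicate number deviated together, most clearly those of replicate 1. Counts from a fit with the replicate number as a term (the block) are therefore given beside those without it. Standard errors are from the fit without the block throughout.

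Of 22704 genes tested, 216 were higher in pkl than in WT and 214 were lower, or 0.951% and 0.943% of the genes tested. A gene passed when the adjusted p of the moderated limma test was under 0.05 and the difference in log2(RPKM + 0.1) was at least 1, which is 2-fold. The added 0.1 understates the change of genes with low levels. In all 216 and all 214 genes the pkl libraries lay beyond every WT library. The calls were made from the same values, so this separation adds no support to them. The 216 genes were weakly expressed in WT, with a median over genes of 3.28 RPKM in pkl and 0.812 RPKM in WT, and 61 of them had at most 3 reads in every WT library. A feature was tested when at least 3 of the 12 libraries reached 0.1 RPKM. Features under 0.1 RPKM in every WT library, such as LEC2, SESA4 and AT1G20795 below, could pass this filter only through mutant libraries. Counts of rises that include such features therefore depend in part on the rise itself. The 214 genes had a median of 1.28 RPKM in pkl and 3.84 RPKM in WT, against 8.21 RPKM in WT for all genes tested. With the replicate block, 377 genes (1.66%) were higher and 414 (1.82%) lower, and these included 215 of the 216 and all 214. The shares of all genes, without and with the block, are those to set beside the counts of families and lists below. Rescaling the libraries by median ratios, which moved the median difference of all features to -0.00463 on the log2 scale, against 0.0724 as tested, gave 172 higher and 246 lower, so that 41.1% of the called genes were higher, against 50.2%. Called genes depended on single libraries: 92 of the 216 and 97 of the 214 passed in all 6 fits that left out 1 library.

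**Figure D1:**
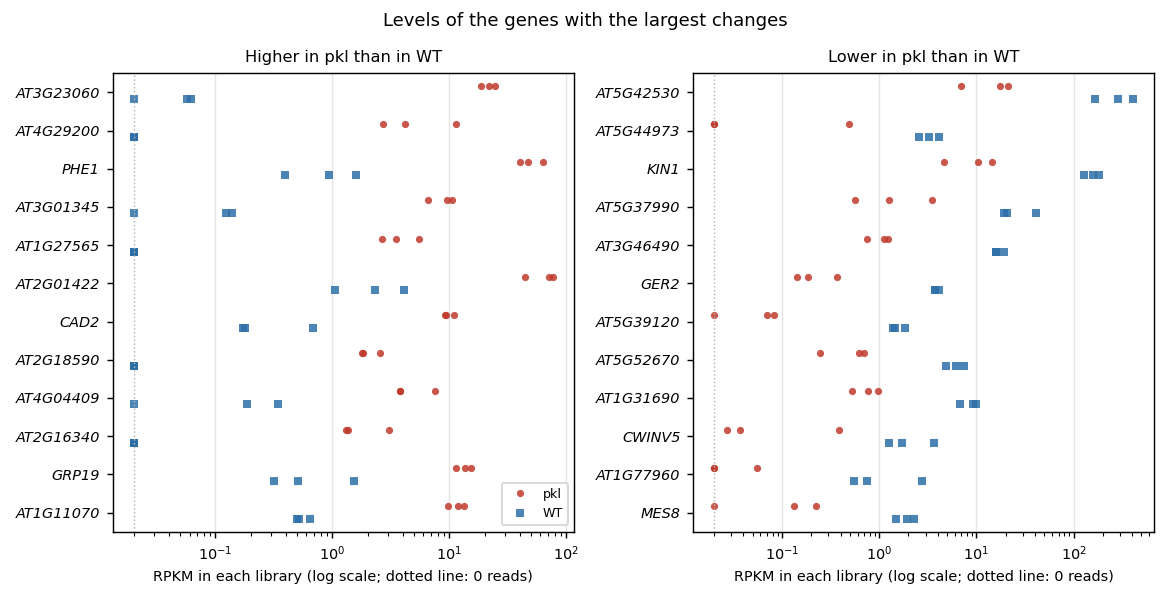
RPKM in each library (log axis) of the 12 genes with the largest rise and the 12 with the largest fall among those that passed the test, pkl as circles above WT as squares; points on the dotted line had 0 reads. By the rule that chose these genes, the 3 pkl libraries of each lie on 1 side of the 3 WT libraries, from AT3G23060 (18.8 to 24.4 RPKM in pkl) to AT5G42530 (6.9 to 21.1 RPKM in pkl).

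The largest rises were in genes that were all but silent in WT. AT3G23060, which encodes a RING/U-box protein of the kind that often acts as a ubiquitin ligase, measured 24.4, 18.8 and 21.9 RPKM in pkl, against 0.062, 0 and 0.0575 RPKM in WT. That is at least 225-fold higher against a floor of 3 reads in each WT library (adjusted p = 7.17e-07), and all alternatives kept the call. PHE1 (PHERES1, AT1G65330), a type I MADS-box gene of the endosperm that is imprinted and a known Polycomb target, measured 40.1, 63.3 and 46.9 RPKM in pkl, against 0.397, 0.937 and 1.59 RPKM in WT. Its log2 fold change was 5.69 ± 0.54 (adjusted p = 0.000464). Its closest relative PHE2 stayed at 0.461, 0.223 and 0.15 RPKM in pkl, against 0.398, 0.157 and 0.0615 RPKM in WT (adjusted p = 0.883).

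Others of these genes had few or no reads in WT. AT4G29200, a gene related to beta-galactosidases, had 2.69, 11.5 and 4.19 RPKM in pkl and no read in any WT library, at least 48.7-fold higher. AT2G18590, a transporter of the major facilitator superfamily, had 1.8, 1.84 and 2.57 RPKM in pkl and no read in WT, at least 17.6-fold higher. The uncharacterized AT1G27565 had 3.53, 5.52 and 2.68 RPKM in pkl and no read in WT, at least 11.7-fold higher, but 57.4% of its 50-base windows occur elsewhere in the genome, so the assignment of its reads is uncertain. AT2G16340, also uncharacterized, had 1.35, 1.31 and 3.08 RPKM in pkl and no read in WT, at least 3.16-fold higher. AT4G04409, a gene with no product in RefSeq, had 7.58, 3.75 and 3.78 RPKM in pkl, against 0.186, 0 and 0.346 RPKM in WT, at least 8.69-fold higher, a call that 5 of the 6 fits without 1 library lost. By the rule that chose these genes, all of these groups were apart.

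Among the rest of the 12, levels in WT were low but measurable. AT3G01345 (uncharacterized) measured 9.57, 10.5 and 6.6 RPKM in pkl, against 0.138, 0.122 and 0 RPKM in WT, a log2 fold change of 5.66 ± 0.60. The hydroxyproline-rich glycoprotein gene AT1G11070, of a class of cell wall proteins, measured 13.2, 9.65 and 11.9 RPKM in pkl, against 0.514, 0.501 and 0.642 RPKM in WT, a log2 fold change of 4.16 ± 0.27. CAD2 (AT2G21730), a homolog of the cinnamyl alcohol dehydrogenases that make lignin precursors, measured 11, 9.1 and 9.28 RPKM in pkl, against 0.682, 0.173 and 0.181 RPKM in WT, a log2 fold change of 4.65 ± 0.47. Its relative CAD3 measured 6.01, 4.13 and 4.55 RPKM in pkl, against 0.443, 0.174 and 0.274 RPKM in WT. The pair share sequence, with 47.2% of the 50-base windows of CAD2 and 55.6% of those of CAD3 found elsewhere, so the split of reads between them is uncertain. They were 2 of 8 tested genes of this product family, and the other 6 did not pass.

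Other genes that rose were already read in every WT library. AT2G01422, which has no product in RefSeq, measured 43.9, 77.1 and 71.1 RPKM in pkl, against 1.05, 4.13 and 2.33 RPKM in WT (log2 fold change 4.77 ± 0.42). In the RdDM mutants it averaged 17.2 RPKM in nrpd1 and 32.1 RPKM in nrpe1. KELP, a transcriptional coactivator of the PC4 family, measured 95, 126 and 159 RPKM in pkl, against 33.7, 36.6 and 30.9 RPKM in WT (1.88 ± 0.22), and averaged 76.2 RPKM in nrpd1 and 170 RPKM in nrpe1. Both genes were thus higher than in WT in all 3 mutants, by these means. SQE6, a squalene monooxygenase of the sterol pathway, rose to 51.2, 44.6 and 48.4 RPKM in pkl, against 15.4, 10.8 and 9.99 RPKM in WT (2.01 ± 0.25), while SQS2, annotated as a squalene synthase, the enzyme before it in the pathway, fell by 1.67 ± 0.31 on the log2 scale, a call that 3 of the 6 fits without 1 library lost. The most abundant called gene that rose was AT3G56360 (uncharacterized), at 157, 234 and 202 RPKM in pkl, against 80.2, 103 and 85.9 RPKM in WT (1.13 ± 0.23), a call that 5 of the 6 fits without 1 library lost. AT3G16660 (pollen Ole e 1 allergen and extensin family), AT1G52070 (mannose-binding lectin), NIT2, AT2G29340 (epimerase/dehydratase) and AT5G56100 (glycine-rich/oleosin-like) rose by 1.03 to 1.47 on the log2 scale, and their means were between 58.0 and 101 RPKM in pkl. Leaving out 1 library ended the calls of AT1G52070, AT2G29340 and NIT2 in 5 of 6 fits each, of AT5G56100 in 2 and of AT3G16660 in 1.

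Single genes of chromatin and gene silencing rose, with 1 of 12 Polycomb genes and 1 of 46 DNA methylation genes higher, against 0.951% of all genes. These counts do not show a rise of either group. RING1B, a core RING-finger subunit of Polycomb repressive complex 1, measured 18.7, 14.7 and 22.7 RPKM in pkl, against 3.72, 2.57 and 4.13 RPKM in WT (log2 fold change 2.40 ± 0.21, adjusted p = 0.000259). It was the only 1 of 12 tested Polycomb genes that passed, and its partner RING1A measured 3.84, 3.66 and 3.62 RPKM in pkl, against 2.58, 2.69 and 3.28 RPKM in WT (adjusted p = 0.475). All 12 Polycomb genes had a positive difference, with a median of 0.27, against 0.07 for all features. Such a shift was not particular to them. Replication genes had 12 of 13 positive (median 0.40) and DNA methylation genes 39 of 46 (median 0.20). Not all lists shifted so, and clock genes had 9 of 16 positive (median 0.01). SWN, a histone methyltransferase of Polycomb repressive complex 2, measured 16.6, 18.7 and 23.1 RPKM in pkl, against 9.75, 11.5 and 14 RPKM in WT. Its adjusted p was 0.0355, but its difference of 0.73 ± 0.16 was under the 1 that a call required.

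In the DNA methylation list AGO9 passed. This gene, an ARGONAUTE that binds small RNAs in the ovule, measured 0.365, 0.339 and 0.394 RPKM in pkl, against 0.0552, 0.109 and 0.0853 RPKM in WT (1.36 ± 0.29), a call that every fit without 1 library lost. With the block VIM4, a relative of the methylation maintenance protein VIM1, was called as well (1.34 ± 0.33, adjusted p = 0.06 without the block and 0.0483 with it), but 78.2% of its 50-base windows are found elsewhere. Outside the list, and chosen after their values were seen, NRPE3B (an RNA polymerase subunit) rose by 1.55 ± 0.25, NRPB9A (a subunit shared by RNA polymerases) by 1.12 ± 0.24, and CRH1 (a MORC-type ATPase) by 1.22 ± 0.25, where 4 of the 6 fits without 1 library lost the calls of NRPB9A and of CRH1. GMI1, a gene of DNA repair induced by irradiation and mitomycin C, measured 8.49, 8.4 and 11.7 RPKM in pkl, against 1.21, 1.2 and 1.53 RPKM in WT (2.76 ± 0.22). SDC, an F-box gene that DNA methylation silences, measured 0.863, 0.73 and 0.848 RPKM in pkl, against 0.0791, 0.0935 and 0.0367 RPKM in WT, at least 6.61-fold higher, and averaged 1.35 RPKM in nrpd1 and 1.61 RPKM in nrpe1.

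ROS1, the DNA glycosylase that removes DNA methylation, went the other way. It measured 1.73, 2 and 2.11 RPKM in pkl, against 11.2, 11.1 and 15.6 RPKM in WT (log2 fold change -2.62 ± 0.21, adjusted p = 0.000191), and kept its call in all 6 fits without 1 library. In nrpd1 it averaged 0.0258 RPKM and in nrpe1 1.07 RPKM, so that pkl lay between those mutants and WT, and the difference of pkl from the mean of the RdDM mutants also passed (log2 fold change 2.42). The other 3 demethylase genes of the list did not pass: DME, which acts in the central cell, and its relatives DML2 and DML3 differed by 0.01 to 0.44 on the log2 scale.

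Seed and pollen genes carried a further set of rises. The list of pollen-coat oleosins, glycine-rich proteins that the tapetum lays on the pollen surface, had 6 members. Of these 3 were expressed enough to be tested, and all 3 passed. GRP19 measured 15.3, 11.5 and 13.5 RPKM in pkl, against 1.54, 0.505 and 0.317 RPKM in WT (4.17 ± 0.44, adjusted p = 0.000749). GRP20 measured 2.56, 2.59 and 3.49 RPKM in pkl, against 0.958, 0.435 and 1.02 RPKM in WT (1.78 ± 0.31), a call that 1 of the 6 fits without 1 library lost. GRP17 had 0.324, 0.449 and 1.34 RPKM in pkl and no read in any WT library, at least 7.62-fold higher. Without reads in WT, GRP17 could pass the filter on low values only through mutant libraries. These genes are neighbors on chromosome 5, and together with AT5G07570 (glycine/proline-rich; 1.21, 2.09 and 3.07 RPKM in pkl, against 0.221, 0.218 and 0.217 RPKM in WT) they form a run of 4 called genes among 6 annotated ones over 13.9 kb (2382381 to 2396329, TAIR10.1). GRP16, inside the run, had 0, 1 and 3 reads in pkl and none in WT and was not tested. Of the markers of pollen and anther, 1 of 6 was expressed enough to be tested and it did not pass (adjusted p = 0.735), so the list's summed level was 20.7 to 30.0 RPKM in pkl and 20.0 to 25.3 RPKM in WT.

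**Figure D2:**
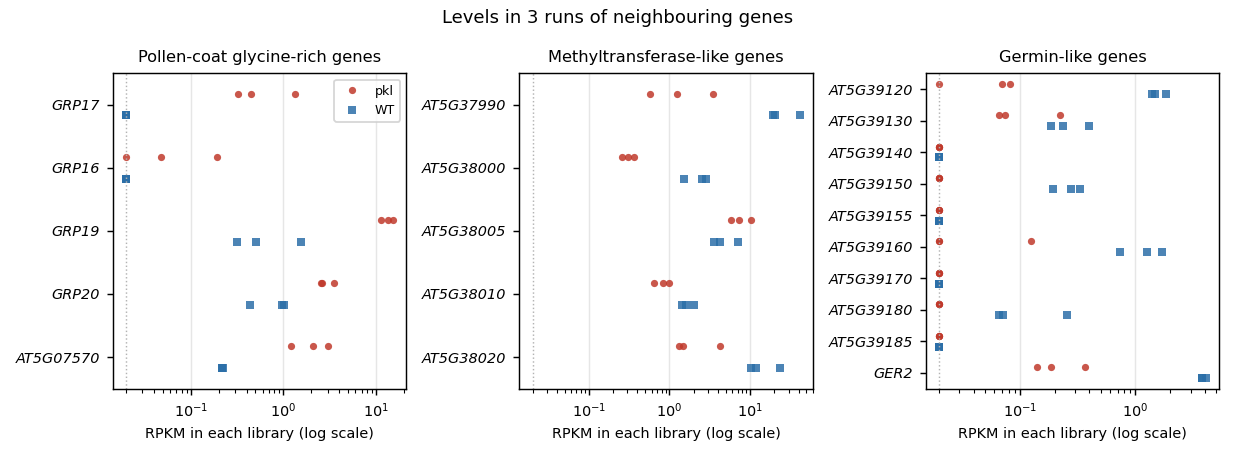
RPKM in each library (log axis) of the genes of 3 runs of called neighbors on chromosome 5 that have a row in the table, in chromosomal order from top to bottom, pkl as circles above WT as squares; points on the dotted line had 0 reads. GRP17 had no read in WT and GER2 was at 0.142 to 0.369 RPKM in pkl, against 3.77 to 4.08 RPKM in WT.

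Of 16 embryo regulators, 10 were expressed enough to be tested and 1 passed. LEC2, a B3 transcription factor that drives embryo development, had 0.418, 0.283 and 0.19 RPKM in pkl, against 0.0844, 0 and 0 RPKM in WT, at least 2.27-fold higher (adjusted p = 0.0476), and every fit without 1 library lost the call. LEC1 had no read in any of the 6 libraries, and FUS3 and ABI3, other master regulators of seed maturation, were read in at most 3 of the 6 libraries and were not tested. ATS3, an embryo-specific protein outside the list, rose to 1.84, 1.14 and 1.79 RPKM in pkl, against 0.218, 0.129 and 0.253 RPKM in WT (2.49 ± 0.39).

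Seed storage and oil body proteins gave 1 call among 6 tested of 15 members. SESA4, a seed storage albumin, had 1.28, 0.948 and 0.91 RPKM in pkl, against 0, 0 and 0.0749 RPKM in WT, at least 4.17-fold higher (adjusted p = 0.0142), a call that 5 of the 6 fits without 1 library lost. The other storage genes were read mainly in pkl replicate 1. SESA2 had 8.92, 0 and 0.937 RPKM in pkl and no read in WT. SESA1 had 5.33, 0 and 0.624 RPKM in pkl and no read in WT. CRA1, a cruciferin, had 3.54, 0.052 and 0.21 RPKM in pkl, against 0.062, 0.11 and 0 RPKM in WT (adjusted p = 0.218 with the block). The summed level of all 15 members was 31.7, 2.84 and 5.36 RPKM in pkl, against 1.82, 1.11 and 1.73 RPKM in WT, so the groups did not overlap but 1 library held most of the signal.

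The promoters of these genes are shown because the RY element, CATGCA, is the site that B3 factors such as LEC2 and FUS3 bind in seed genes. The 250 bases before the annotated start are from RefSeq TAIR10.1, 5′ to 3′ on the gene's strand, with CATGCA or its reverse complement TGCATG in capitals.
SESA4 (chr4:13613346-13613595, plus strand): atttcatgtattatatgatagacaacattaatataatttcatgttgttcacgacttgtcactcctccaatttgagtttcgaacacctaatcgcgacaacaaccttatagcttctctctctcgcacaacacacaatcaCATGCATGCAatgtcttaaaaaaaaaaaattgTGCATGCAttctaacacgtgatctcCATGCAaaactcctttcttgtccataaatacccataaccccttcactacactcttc
GRP17 (chr5:2384526-2384775, minus strand): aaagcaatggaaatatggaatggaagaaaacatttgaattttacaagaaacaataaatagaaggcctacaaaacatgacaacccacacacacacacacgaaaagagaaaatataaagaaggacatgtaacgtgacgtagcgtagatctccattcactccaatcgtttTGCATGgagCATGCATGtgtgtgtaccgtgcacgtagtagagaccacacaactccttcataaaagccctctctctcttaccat
GRP19 (chr5:2389250-2389499, minus strand): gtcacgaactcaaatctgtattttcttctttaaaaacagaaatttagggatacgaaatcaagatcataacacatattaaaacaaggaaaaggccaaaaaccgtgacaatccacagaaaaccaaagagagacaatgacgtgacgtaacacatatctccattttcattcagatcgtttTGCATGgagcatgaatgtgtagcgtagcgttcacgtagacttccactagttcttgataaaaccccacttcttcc
SESA4 held 6 matches, GRP17 3 and GRP19 1, counted on both strands with overlaps, and the 250 bases before PHE1, LEC2, ATS3 and GRP20 held none. Over the 206 protein-coding genes called higher, 11.2% had a match in this window, against 16.6% of the 211 called lower and 8.43% of all 27444 protein-coding genes. A match is a string of letters only.

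F-box proteins, the substrate receptors of ubiquitin ligases, were the family with the most rises. Families described here were picked by their RefSeq product after their values were seen, so their counts are a description. Of 216 tested genes with an F-box product name, 8 were higher and none lower (3.70% higher, against 0.951% of all genes). With the block 14 were higher and 2 lower, against 1.66% and 1.82% of all genes. Genes listed under another product name, such as PP2-B2 and PP2-B11 below, were not counted here. AT1G20795 had 1.23, 1.37 and 0.698 RPKM in pkl and no read in any WT library. AT1G78750 measured 3.8, 4.36 and 5.78 RPKM in pkl, against 0.323, 0.619 and 0.823 RPKM in WT (2.84 ± 0.41). AT2G06040 measured 6.95, 9.64 and 11.4 RPKM in pkl, against 2.39, 2.01 and 3.57 RPKM in WT (1.79 ± 0.24). In none of these did the groups overlap, as in every gene that passed. Proteins with a late embryogenesis abundant (LEA) product name had 5 of 67 tested genes higher (7.46%) and none lower. They were grouped by name alone, and whether they protect drying cells was not tested. With the block 7 were higher and 2 lower. AT3G19430 was the most changed of the 5, at 4.37, 4.26 and 3.64 RPKM in pkl, against 0.887, 0.804 and 1.21 RPKM in WT (1.99 ± 0.39), a call that 5 of the 6 fits without 1 library lost. AT5G54370, the most abundant of the 5 in pkl, was at 31.4, 25.6 and 25.8 RPKM in pkl, against 9.93, 12.7 and 13.2 RPKM in WT. The late embryogenesis and ABA list below went another way, with none of 12 tested genes higher and 2 lower without the block. Among nucleotidyltransferases 2 of 12 passed, both higher: AT2G40520 measured 22.8, 28.5 and 29 RPKM in pkl, against 3.26, 3.29 and 2.79 RPKM in WT (3.06 ± 0.24). Of the other families, cytochromes P450 had 5 higher and 3 lower of 185 (2.70% and 1.62%, against 0.951% and 0.943% of all genes). With the block 5 were higher and 9 lower. Jacalin-type lectins had 3 higher and 2 lower of 32 (9.38% and 6.25%), and 5 and 3 with the block. Terpenoid synthesis had 3 higher and 1 lower of 31 (9.68% and 3.23%), and 3 and 2 with the block.

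**Figure D3:**
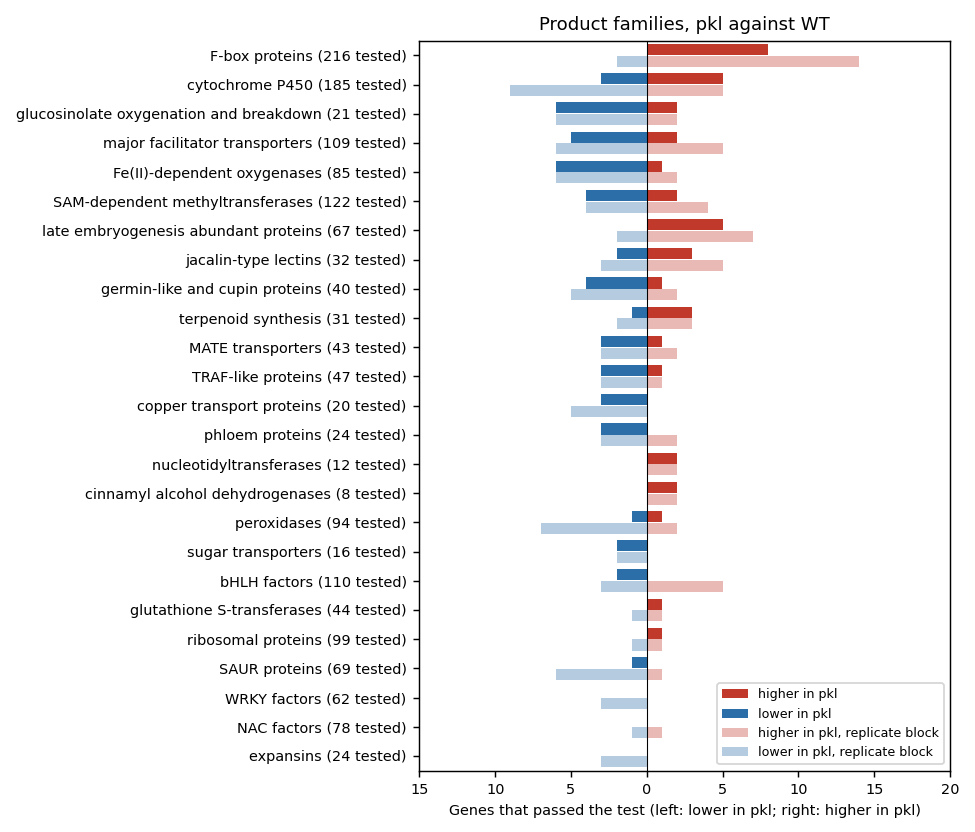
Number of genes of 25 product families that passed the test, to the right where higher in pkl and to the left where lower, in full color without and in pale color with the replicate block. F-box genes are the family with the most genes higher (8, or 14 with the block), and glucosinolate and Fe(II)-dependent oxygenase genes have the most lower (6 each without the block).

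Genes induced by cold and by abscisic acid (ABA) were among those that fell. KIN1, a small protein induced by cold and ABA, measured 14.4, 10.3 and 4.68 RPKM in pkl, against 184, 159 and 128 RPKM in WT. Its log2 fold change was -4.11 ± 0.34 (adjusted p = 0.000211) and it kept its call in all 6 fits without 1 library. Its tandem neighbor KIN2 measured 256, 377 and 312 RPKM in pkl, against 414, 1247 and 864 RPKM in WT, where the groups were also apart (-1.30 ± 0.58, adjusted p = 0.317, and 0.031 with the block). Of the 18 genes of the cold and dehydration list, 16 had a negative difference, with a median of -0.66, against 0.07 for all features. KIN1 was the only one to pass, while COR15B, COR413IM1 and KIN2 passed as well with the block (4 of 18 lower and none higher), all genes of chloroplast membrane or cytosol protection in the cold. COR15B measured 55.1, 151 and 130 RPKM in pkl, against 127, 537 and 382 RPKM in WT (-1.53 ± 0.89, adjusted p = 0.0128 with the block). The CBF factors that switch these genes on were in the list of cold regulators, where none of 6 passed and none had an unadjusted limma p under 0.05, and voom called none.

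Genes of the ABA response fell with KIN1 in part. RAB18, a dehydrin, measured 8.66, 5.48 and 4.11 RPKM in pkl, against 35.4, 55.1 and 39.1 RPKM in WT (-2.85 ± 0.67, adjusted p = 0.0478), and every fit without 1 library lost the call. NCED3, which makes the rate-limiting enzyme of ABA synthesis under drought, measured 0.477, 0.443 and 0.244 RPKM in pkl, against 2.91, 1.79 and 1.2 RPKM in WT (-2.03 ± 0.34, adjusted p = 0.0103). They were the 2 of 12 tested genes of the late embryogenesis and ABA list that passed. EM6 and M17, seed genes of the same list, were higher with the block alone (1.86 ± 0.50 and 2.47 ± 0.68), and the ABA signaling genes ABI1, ABI2, ABF2, ABF3 and ABF4 differed by -0.33 to 0.17 and did not pass. PYL6, an ABA receptor outside the list, rose to 40.3, 40 and 41.8 RPKM in pkl, against 23.8, 18.6 and 16.6 RPKM in WT (1.06 ± 0.17), a call that 1 of the 6 fits without 1 library lost.

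The promoters of KIN1 and RAB18, with COR15A for comparison, were searched for the ABA-responsive core ACGTG and the cold and drought core CCGAC. Matches are in capitals on either strand (RefSeq TAIR10.1, 250 bases before the annotated start, 5′ to 3′ on the gene's strand).
KIN1 (chr5:5209467-5209716, plus strand): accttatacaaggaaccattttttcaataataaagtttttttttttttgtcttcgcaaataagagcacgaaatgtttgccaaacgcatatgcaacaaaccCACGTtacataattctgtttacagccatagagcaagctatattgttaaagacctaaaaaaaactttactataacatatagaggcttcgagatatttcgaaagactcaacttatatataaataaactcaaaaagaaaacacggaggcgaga
RAB18 (chr5:26519448-26519697, minus strand): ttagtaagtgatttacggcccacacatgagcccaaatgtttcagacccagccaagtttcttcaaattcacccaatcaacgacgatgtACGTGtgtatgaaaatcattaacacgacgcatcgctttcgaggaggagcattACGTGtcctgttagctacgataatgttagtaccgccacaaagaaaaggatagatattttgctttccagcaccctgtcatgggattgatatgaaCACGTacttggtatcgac
COR15A (chr2:17712331-17712580, minus strand): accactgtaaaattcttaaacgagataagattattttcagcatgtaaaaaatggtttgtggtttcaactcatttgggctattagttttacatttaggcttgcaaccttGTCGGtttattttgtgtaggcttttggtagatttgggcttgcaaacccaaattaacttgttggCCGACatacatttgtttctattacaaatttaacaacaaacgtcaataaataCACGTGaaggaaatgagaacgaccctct
KIN1 held 1 match to ACGTG and none to CCGAC, RAB18 3 and none, and COR15A 2 and 2. COR15A measured 78.6, 105 and 81.1 RPKM in pkl, against 107, 290 and 175 RPKM in WT, and did not pass with or without the block. Over the 18 list genes 61.1% had ACGTG and 44.4% CCGAC in this window, against 22.9% and 12.0% of all protein-coding genes, and among the 211 protein-coding genes called lower 32.7% had ACGTG and 10.9% CCGAC.

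Jasmonate defense and glucosinolate breakdown genes formed another group of falls. Of 18 jasmonate genes, 4 fell and none rose, with a list median of -0.42. VSP1, a vegetative storage protein that jasmonate induces, measured 3.22, 2.09 and 2.35 RPKM in pkl, against 14.7, 15.9 and 12.4 RPKM in WT (-2.46 ± 0.22). Its relative VSP2 measured 16, 13.2 and 8.6 RPKM in pkl, against 69.7, 80.6 and 51.3 RPKM in WT (-2.43 ± 0.27). MBP1 and MBP2, which bind myrosinase, were the others, and they are counted again among the glucosinolate breakdown genes below. The regulators MYC2, JAZ1 and JAZ9 differed by -0.25 to 0.13 and did not pass. LOX2, the chloroplast lipoxygenase of jasmonate synthesis, measured 169, 144 and 90.7 RPKM in pkl, against 78.6, 63.7 and 39.9 RPKM in WT, and was higher with the block alone (1.15 ± 0.42, adjusted p = 0.0271). LOX3, outside the list, fell by 1.33 ± 0.23, a call lost in 1 of the 6 fits without 1 library. PDF1.3, a defensin, was lower with the block alone (-1.76 ± 0.97).

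The myrosinases and their partners split glucosinolates when tissue is wounded. TGG2, a myrosinase, measured 199, 204 and 198 RPKM in pkl, against 437, 424 and 469 RPKM in WT (-1.14 ± 0.12, adjusted p = 0.000749). ESP, the epithiospecifier protein that steers breakdown toward nitriles, measured 2.19, 1.55 and 1.29 RPKM in pkl, against 7.88, 9.31 and 5.08 RPKM in WT (-2.07 ± 0.32), with 10.3% of its windows found elsewhere. The S-oxygenases FMO GS-OX2 and FMO GS-OX4, which modify aliphatic side chains, fell by 1.83 ± 0.28 and 1.61 ± 0.27, and MBP2 by 1.53 ± 0.21. MBP1 measured 2.52, 2.3 and 1.01 RPKM in pkl, against 4.86, 5 and 3.98 RPKM in WT (log2 fold change -1.30 ± 0.28, adjusted p = 0.0339), and 5 of the 6 fits without 1 library lost its call. NSP2, a nitrile specifier protein, and NIT2, a nitrilase, rose by 1.33 ± 0.30 and 1.41 ± 0.26, each a call that 5 or 6 of the fits without 1 library lost. In all, 6 of 21 tested genes for glucosinolate oxygenation and breakdown were lower (28.6%) and 2 higher (9.52%). Of 10 genes for aliphatic glucosinolate synthesis 8 had a negative difference. None passed in limma without the block or in voom, with 3 at an unadjusted p under 0.05, and 1 was lower with the block. MYB29, 1 of the main regulators of that pathway, measured 4.49, 2.83 and 1.53 RPKM in pkl, against 12.8, 9.21 and 3.84 RPKM in WT and passed with the block (-1.48 ± 0.60, adjusted p = 0.000751), while MYB28 was level (0.01 ± 0.31).

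**Figure D4:**
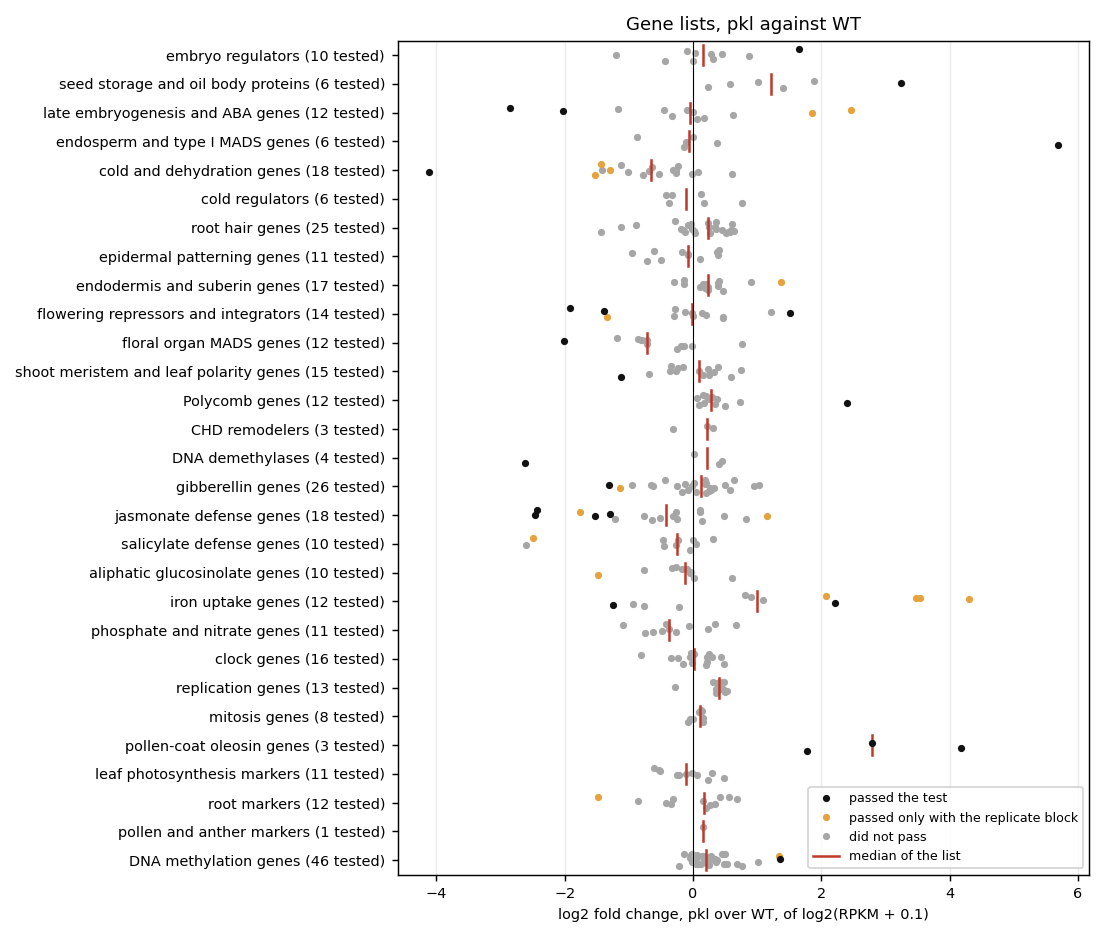
Log2 fold change, pkl over WT, of the tested genes of 29 lists: black points passed the test, orange points passed with the replicate block only, gray points did not pass, and the red bar is the list's median. The cold, jasmonate and floral MADS lists have medians of -0.66, -0.42 and -0.72, and the iron list has a median of 1.00.

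Defense and secreted proteins outside these lists also fell. AT5G42530, an uncharacterized protein and the largest fall of all, measured 21.1, 17.6 and 6.9 RPKM in pkl, against 168, 413 and 288 RPKM in WT (-4.30 ± 0.51, adjusted p = 0.00147). ECS1, a cell wall protein of disease response, measured 52.2, 58.5 and 40.1 RPKM in pkl, against 309, 446 and 265 RPKM in WT (-2.74 ± 0.29). AT1G67865, which is uncharacterized, measured 56.6, 59.2 and 53.4 RPKM in pkl, against 221, 335 and 299 RPKM in WT (-2.32 ± 0.29). As in every gene that passed, none of these 3 overlapped between groups. AT5G44973, a defensin-like protein, had 0, 0 and 0.488 RPKM in pkl, against 2.6, 3.24 and 4.15 RPKM in WT, at least 7.80-fold lower. PRB1, a basic pathogenesis-related protein, fell by 2.90 ± 0.41, whereas PDF1.4, a defensin, rose by 2.37 ± 0.26. Other abundant genes that fell were AT4G11320 (a papain-type protease, -1.31 ± 0.24) and MLP328 (-1.10 ± 0.18), and leaving out 1 library cost AT4G11320 its call in 3 of 6 fits and MLP328 in 1. AT1G77960, annotated as a repressor ROX1-like protein, had 0, 0.0557 and 0 RPKM in pkl, against 2.79, 0.745 and 0.554 RPKM in WT, at least 13.9-fold lower, a call that 5 of the 6 fits lost. Of 10 salicylate genes none passed in limma without the block or in voom, with 1 at an unadjusted p under 0.05. With the block WRKY70, a regulator of salicylate responses, was lower, at 5.65, 8.93 and 1.58 RPKM in pkl, against 7.55, 71.3 and 28.4 RPKM in WT (-2.49 ± 0.83, adjusted p = 0.0308), where the genotypes overlapped.

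Falls came in 2 runs of neighboring genes on chromosome 5. The first spans 34.0 kb (15133867 to 15167864, TAIR10.1), where 3 of 6 annotated genes fell. AT5G37990, a methyltransferase of the family that makes methyl esters such as methyl salicylate, measured 3.46, 0.565 and 1.25 RPKM in pkl, against 41.1, 19.3 and 20.6 RPKM in WT (-4.11 ± 0.59). AT5G38020, a relative, measured 4.23, 1.48 and 1.3 RPKM in pkl, against 23.3, 11.9 and 10.2 RPKM in WT (-2.74 ± 0.49), a call that 3 of the 6 fits without 1 library lost. The dehydrogenase AT5G38000 between them fell by 2.50 ± 0.25. MES8, a methyl esterase elsewhere in the genome that belongs to the family cutting such esters, had 0.132, 0.223 and 0 RPKM in pkl, against 2.26, 1.49 and 1.91 RPKM in WT (-3.33 ± 0.38), while MES18 rose by 2.26 ± 0.36.

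The second run spans 31.2 kb (15662582 to 15693735) and holds germin-like genes, which encode secreted cupin-fold proteins of the cell wall. GER2 measured 0.187, 0.369 and 0.142 RPKM in pkl, against 3.77, 3.79 and 4.08 RPKM in WT (-3.64 ± 0.31). AT5G39120 had 0.0827, 0.0699 and 0 RPKM in pkl, against 1.83, 1.38 and 1.47 RPKM in WT, at least 6.33-fold lower, and averaged 0.0962 RPKM in nrpd1 and 0.416 RPKM in nrpe1. AT5G39160 was at least 6.62-fold lower. AT5G39150 had no read in any pkl library, against 0.279, 0.33 and 0.194 RPKM in WT, but every fit without 1 library lost its call, and 2 of the 6 lost that of AT5G39120. These copies are alike, with 46.9% to 90.6% of their 50-base windows found elsewhere, so how reads were split among them is uncertain. Of 40 tested germin-like and cupin genes 4 were lower and 1 higher, and the 4 were those of this run. The 1 that rose, AT4G36700, had 0.987, 0.531 and 0.238 RPKM in pkl, against 0, 0 and 0.028 RPKM in WT, at least 6.24-fold higher.

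Metal and sugar transport genes fell in smaller numbers. Copper transport proteins had 3 of 20 tested genes lower and none higher, and 5 lower with the block. COPT2, a copper importer of the plasma membrane, measured 13.7, 7.76 and 9.95 RPKM in pkl, against 36.9, 25.3 and 26.2 RPKM in WT (-1.50 ± 0.25). AT5G52670 measured 0.243, 0.617 and 0.691 RPKM in pkl, against 6.13, 7.53 and 4.89 RPKM in WT (-3.42 ± 0.75), a call that every fit without 1 library lost. Its neighbor AT5G52680 had no read in pkl and 0.62, 0.732 and 0.287 RPKM in WT, at least 2.38-fold lower, a call lost in 2 of the 6 fits, and AT5G52710 and AT5G52720, close by, were lower with the block alone. AT1G31690, a copper amine oxidase, fell to 0.758, 0.962 and 0.523 RPKM in pkl, against 9.91, 9.13 and 6.71 RPKM in WT (-3.37 ± 0.25).

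Among 16 tested sugar transporters 2 were lower (12.5%) and none higher. SUC2, the sucrose importer that loads the phloem, measured 46.8, 33.2 and 29.3 RPKM in pkl, against 101, 77.5 and 79 RPKM in WT (-1.25 ± 0.19, adjusted p = 0.00568). SWEET10, a sucrose exporter, had 0, 0.0372 and 0 RPKM in pkl, against 0.444, 1.15 and 1.23 RPKM in WT, at least 7.19-fold lower. CWINV5, a cell wall invertase, which splits exported sucrose, measured 0.387, 0.0272 and 0.0366 RPKM in pkl, against 3.64, 1.73 and 1.26 RPKM in WT (-3.37 ± 0.52). Phloem proteins had 3 of 24 lower (12.5%, PP2-A6, PP2-B2 and PP2-B11) and none higher. Each call was lost in 4 or 5 of the 6 fits without 1 library, and 2 genes were higher with the block. Fe(II)-dependent oxygenases had 6 of 85 lower (7.06%) and 1 higher (1.18%). AT3G46490 was by far the most changed of them, at 1.22, 1.13 and 0.757 RPKM in pkl, against 15.9, 19.4 and 16 RPKM in WT (-3.94 ± 0.20, adjusted p = 6.69e-06), and its neighbor AT3G46500 fell by 1.88 ± 0.28. DMR6, the salicylate hydroxylase of this family, fell by 1.08 ± 0.25, a call that 5 of the 6 fits lost.

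Iron uptake genes were mostly called with the replicate block only, with 1 higher and 1 lower of 12 without it and 5 higher and 1 lower with it. FRO1, a ferric reductase, had 0.391, 0.572 and 0.651 RPKM in pkl, against 0.0263, 0.031 and 0.0487 RPKM in WT, at least 6.59-fold higher, and was the 1 iron gene that rose without the block. NAS2, a nicotianamine synthase, was the 1 that fell (-1.24 ± 0.27), a call that every fit without 1 library lost. BHLH38, 1 of 4 closely related transcription factors that iron shortage induces, measured 11.7, 12.7 and 7.49 RPKM in pkl, against 2.56, 0.0719 and 0.226 RPKM in WT. The groups did not overlap and the difference was 4.30 ± 1.26, with an adjusted p of 0.11, and 0.0063 with the block. BHLH39, BHLH100 and BHLH101 were also higher with the block alone, at 3.54 ± 1.06, 3.48 ± 1.04 and 2.08 ± 0.77. IRT1, the iron importer of the root, measured 12.5, 14.8 and 5.66 RPKM in pkl, against 7.23, 2.74 and 7.72 RPKM in WT and overlapped (adjusted p = 0.453 with the block), and FIT, the regulator of IRT1, had a difference of -0.93 ± 0.44 and did not pass. Outside the list FRO3, a mitochondrial ferric reductase, rose by 1.01 ± 0.19, a call lost in 4 of the 6 fits without 1 library. IREG2, a metal transporter of the vacuole and also outside the list, fell by 1.26 ± 0.21.

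**Figure D5:**
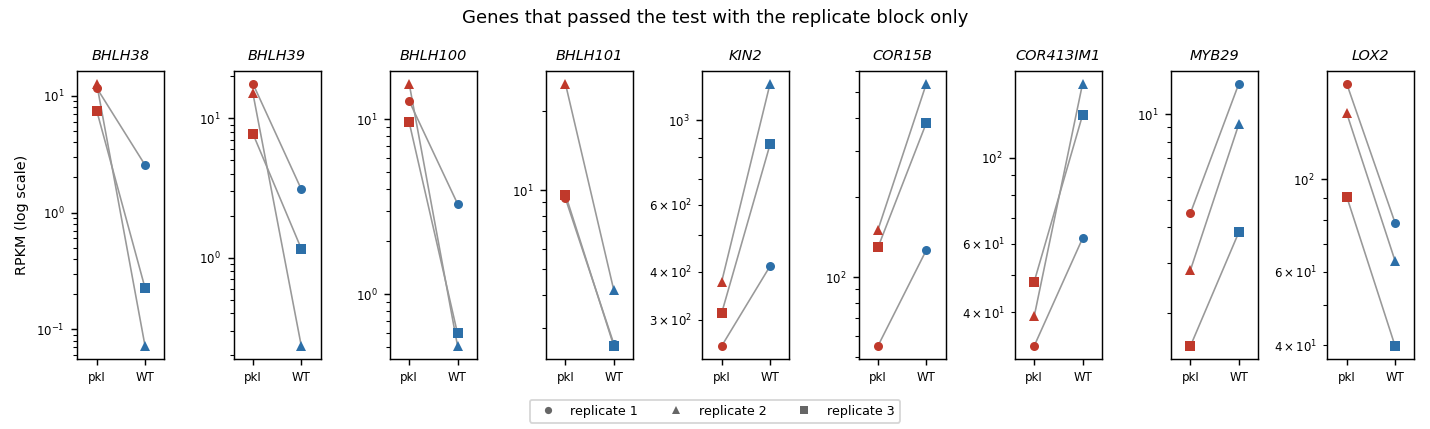
RPKM (log axis, a separate scale for each gene) of 9 genes that passed the test only with the replicate block, pkl at left and WT at right, with lines joining libraries of the same replicate number. All lines of a gene run the same way, while replicates of 1 genotype differ, for example 256 to 377 RPKM in pkl and 414 to 1247 RPKM in WT for KIN2.

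Flowering and meristem genes were few but included named regulators. FLC, the repressor of flowering that vernalization silences through Polycomb, measured 0.828, 0.437 and 0.647 RPKM in pkl, against 2.61, 2.77 and 2.47 RPKM in WT (-1.91 ± 0.21, adjusted p = 0.000987), and averaged 4.86 RPKM in nrpd1 and 3.5 RPKM in nrpe1. MAF4, a relative and repressor too, rose to 5.79, 7.18 and 6.3 RPKM in pkl, against 1.31, 3.09 and 2.57 RPKM in WT (1.51 ± 0.29), a call lost in 2 of the 6 fits without 1 library. AGL24, which promotes flowering, measured 4.66, 5.62 and 3.81 RPKM in pkl, against 13.6, 12 and 11.5 RPKM in WT (-1.39 ± 0.14). LFY, which sets floral identity, was lower with the block alone (-1.34 ± 0.35). FT and SOC1, the integrators of the flowering signals, differed by 0.21 ± 0.39 and -0.13 ± 0.18 and did not pass. In the floral organ MADS list 11 of 12 genes had a negative difference, with a median of -0.72, but FUL was the only one that passed, at 0.195, 0.536 and 0.388 RPKM in pkl, against 1.62, 1.92 and 1.64 RPKM in WT (-2.02 ± 0.32). STM, the homeobox gene of the shoot meristem, fell by 1.13 ± 0.21, 1 of 15 genes of shoot meristem and leaf polarity to pass, but 4 of the 6 fits without 1 library lost the call. HEC1, a bHLH gene of the carpel and the shoot meristem, measured 0.196, 0.539 and 0.112 RPKM in pkl, against 1.38, 2.92 and 2.25 RPKM in WT (-2.68 ± 0.49), a call that 4 of the 6 fits lost. Of 110 bHLH genes 2 were lower (1.82%, against 0.943% of all genes) and none higher. With the block 3 were lower and 5 higher, where 1.82% of all genes were lower and 1.66% higher.

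Gibberellin genes gave 1 call among 26, although pkl plants are known for a growth habit like that of gibberellin-deficient plants. GASA6, a secreted peptide gene that gibberellin induces, measured 162, 163 and 188 RPKM in pkl, against 460, 366 and 451 RPKM in WT (-1.31 ± 0.18, adjusted p = 0.0039). GA2OX2, which inactivates gibberellin, was lower with the block alone (-1.14 ± 0.60). Over the list 15 genes had a positive and 11 a negative difference.

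Of 29 lists, 14 had no called gene. These hold 154 tested genes, of which 21 had an unadjusted limma p under 0.05, 4 passed with the block and none in voom. They cover cold regulators, root hairs, epidermal patterning, the endodermis and suberin, CHD remodelers, salicylate defense, aliphatic glucosinolates, phosphate and nitrate, the clock, replication, mitosis, and the organ markers of leaf, root and pollen. Leaf photosynthesis markers (11 genes) had summed levels of 41964 to 64480 RPKM in pkl and 46049 to 70897 RPKM in WT, and the 12 root markers summed to 1052 to 1424 RPKM in pkl and 1327 to 1730 RPKM in WT, so the ranges of both lists overlapped. Within each replicate number the sum was lower in pkl for both lists, for example 1424 RPKM in pkl and 1730 RPKM in WT for the root markers of replicate 1, and 64480 RPKM in pkl and 70897 RPKM in WT for the leaf markers. By gene, however, 7 of the 12 root markers had a positive difference and 5 a negative one, with a median of 0.17. The root hair list and the endodermis and suberin list summed higher in pkl within each replicate number. In replicate 1 the root hair list summed to 221 RPKM in pkl and 176 RPKM in WT, and the endodermis and suberin list to 204 and 181 RPKM. None of the 11 leaf genes passed with or without the block, and LBD29, a factor of lateral root initiation, was the 1 root marker that was lower with the block (-1.48 ± 0.38). The part of these shifts in the other results was not tested. CASP4, which builds the Casparian strip, was higher with the block alone, at 4.97, 6.58 and 5.45 RPKM in pkl, against 1.92, 2.37 and 2.11 RPKM in WT (1.36 ± 0.33). CPL3 (also named ETC3), of the epidermal patterning list, measured 3.06, 4.16 and 3.48 RPKM in pkl, against 6.71, 8.24 and 5.97 RPKM in WT. Its adjusted p was 0.0324, and its difference of -0.95 ± 0.20 was just under the size required. Among transcription factor families, WRKY (62 tested) and NAC (78 tested) had no called gene in limma without the block or in voom, with 12 and 7 at an unadjusted p under 0.05. With the block 3 WRKY genes were lower, and 1 NAC gene was higher and 1 lower. No microRNA gene of 97 passed in limma without the block or in voom, with 10 at an unadjusted p under 0.05, and 3 passed with the block. The poly-A libraries read primary transcripts, not mature microRNAs.

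Most TEs did not pass the test. Of 965 TEs tested, 17 were higher in pkl (1.76%) and 2 lower (0.207%), and with the block 28 (2.9%) were higher and 10 (1.04%) lower. Read numbers were small: 12 of the 17 had at most 3 reads in every WT library. AT5TE34435 had 9, 17 and 20 reads in pkl (15.5, 24.7 and 39.1 RPKM) and none in WT, nrpd1 or nrpe1, at least 4.90-fold higher. Read in pkl alone, AT5TE34435 could pass the filter on low values only through the pkl libraries. AT5TE47170 had 11, 40 and 48 reads in pkl and none in WT, at least 10.6-fold higher. AT4TE10320 was the best covered of them, with 283, 676 and 382 reads in pkl, against 11, 16 and 13 reads in WT (2.92, 5.9 and 4.48 RPKM, against 0.115, 0.197 and 0.125 RPKM), a log2 fold change of 4.17 ± 0.28. AT3TE92805 had 1, 6 and 2 reads in pkl and AT4TE26325 had 3, 4 and 4, with none in WT, which is too few for a firm ratio. AT5TE00870 and AT4TE40115 were read in the RdDM mutants as well: AT4TE40115 averaged 2.14 RPKM in pkl, 9.18 RPKM in nrpd1, 4.20 RPKM in nrpe1 and 0 in WT, and AT5TE00870 averaged 3.84 RPKM in pkl, 5.39 RPKM in nrpd1, 4.86 RPKM in nrpe1 and 0.133 RPKM in WT. The TEs that fell were AT1TE85165 (2, 1 and 2 reads in pkl, against 18, 43 and 20 in WT) and AT4TE44655 (1, 0 and 0 reads in pkl, against 2, 2 and 5 in WT), and neither kept its call in all 6 fits without 1 library. The overlap of these TEs with genes was not tested.

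Against the mean of nrpd1 and nrpe1, 364 genes were higher in pkl (1.6%) and 301 lower (1.33%). This comparison shares its pkl libraries with the one above, so no overlap between them is read. For the members, the levels in the RdDM mutants show which changes from WT were shared. PHE1 averaged 50.1 RPKM in pkl, 0.37 RPKM in nrpd1, 0.341 RPKM in nrpe1 and 0.976 RPKM in WT, and AT3G23060 averaged 21.7 RPKM in pkl, 0.0276 RPKM in nrpd1, 0 in nrpe1 and 0.0398 RPKM in WT. KIN1 averaged 9.82 RPKM in pkl, 113 RPKM in nrpd1, 116 RPKM in nrpe1 and 157 RPKM in WT, and RING1B 18.7 RPKM in pkl, 3.74 RPKM in nrpd1, 4.08 RPKM in nrpe1 and 3.47 RPKM in WT. In these 4 genes pkl differed from the RdDM mutants in the direction it differed from WT, and the difference passed. In ROS1, KELP, SDC, AT2G01422 and AT5G39120, given above, nrpd1 and nrpe1 lay on the pkl side of WT. MBP1 showed another order, with 1.94 RPKM in pkl, 13.4 RPKM in nrpd1, 15.4 RPKM in nrpe1 and 4.61 RPKM in WT.

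By kind of gene, 206 protein-coding genes were higher and 211 lower of 21711 tested, and pseudogenes had 7 higher and 2 lower of 273. Of the 430 called genes, 34 had over 10% of their 50-base windows found elsewhere in the genome and 88 overlapped another annotated gene, so that the source of their reads is less certain.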

How the data were processed

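RNA-seq of poly-A RNA was measured in 12 libraries of 4 genotypes. Per the labels, the submitters' processing notes name CASAVA 1.8, Trim Galore 0.4.0, Subread 1.5.1 and edgeR, and the TAIR10 build. The strand setting of the counting is not given in the sources used here. The deposited table holds RPKM values that the authors made from read counts per gene or TE. Whole reads were recovered from the RPKM steps (100% of features above 0).

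A feature was kept when 3 or more of the 12 libraries reached 0.1 RPKM (23669 kept). Values were tested as log2(RPKM + 0.1) with limma 3.58.1 in R 4.3.3 (1 mean per genotype, all 12 libraries sharing the estimate of the spread, trend in eBayes), with Benjamini-Hochberg adjustment over all features tested. A call needed an adjusted p under 0.05 and a difference of at least 1. The test was checked on simulated data. Alternatives were the replicate number as a block, other pseudocounts, no filter, pkl and WT libraries alone, median-ratio scaling, voom on recovered reads, and leaving out libraries.

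The labels give no source for the replicate numbers. The deviations of same-numbered pkl and WT libraries from their group means correlated at 0.556, 0.359 and 0.412, against -0.382 to 0.0593 for different numbers, so the numbers were taken to pair the libraries. Replicates 2 and 3 were hardly told apart against nrpe1. There pkl replicate 2 correlated at 0.185 with both, and pkl replicate 3 at 0.210 with replicate 2 and 0.234 with replicate 3. Replicate 1 of pkl correlated at 0.543 with replicate 1 of nrpe1.

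Gene names and positions are from RefSeq TAIR10.1, which matched 32835 of 33602 genes; symbols were planned from the deposited table, which holds none. The members and lists were chosen with earlier results of these data known. Genes named were PKL, the 12 with the largest change in each direction among called genes whose pkl libraries lay beyond all WT libraries, the 8 most abundant called genes in each direction, up to 5 called TEs in each direction, called members of lists and runs of neighbors, examples from families, and up to 3 defining members of lists with few calls. Others were chosen after their values were seen. Folds against a group at or under 3 reads in every library are bounds, computed at 3 reads per library.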

Additional observations from a re-analysis of the deposited data

How the results depend on the processing

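Against 216 genes higher and 214 lower, 17 TEs higher and 2 lower, and 364 genes higher and 301 lower than the RdDM mutants, these settings moved counts, most by more than 1.5 times. The replicate block gave 377 and 414 genes, 28 and 10 TEs, and 481 genes lower than the RdDM mutants. A pseudocount of 1 gave 120 and 115 genes, 1 TE lower, and 180 and 127 genes against the RdDM mutants, and a pseudocount of 0.01 gave 1 TE lower. The 6 pkl and WT libraries alone gave 136 and 124 genes. Voom on recovered reads called 0 TEs lower, with 23 at an unadjusted p under 0.05, against 2 in limma on log2(RPKM + 0.1). Leaving out nrpe1 replicate 2 gave 220 and 204 genes and 1 TE lower, and leaving out replicate 1 of every genotype gave 9 TEs lower. These omissions were chosen after seeing the data. Leaving out 1 pkl or WT library gave 117 to 171 genes higher, 127 to 186 lower, 12 to 20 TEs higher and 1 to 2 lower, and 213 to 345 and 171 to 280 genes against the RdDM mutants. The lowest counts came without pkl replicate 3 (117 higher) and WT replicate 2 (127 lower).

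Of 69 called genes and TEs named by the fixed rule (largest changes, most abundant genes, TEs, and called members of lists and runs), 34 kept their call under all 13 alternatives named in the methods and 0 changed sign. Family examples and genes chosen after their values were seen are outside this tally unless the rule also named them. The replicate block kept all 69, and over all genes it added 162 higher and 200 lower, of which the report names those in the gene lists and a few others. The cause of these shifts was not tested. Genes with few reads limit the comparison, since 1 read in 1 kb is worth 0.0466 to 0.0656 RPKM.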

Other observations

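Further genes, chosen after their values were seen, changed in pkl. TCL1, a single-repeat MYB that inhibits trichome formation, measured 0.499, 0.422 and 0.454 RPKM in pkl, against 1.81, 3.21 and 2.61 RPKM in WT (log2 fold change -2.21). Its relative ETC2 measured 2.22, 1.74 and 1.26 RPKM in pkl, against 5.11, 6.69 and 6.29 RPKM in WT (-1.76). In neither did the genotypes overlap, which adds no support, since both genes were chosen from these values. ADS1, a fatty acid desaturase, measured 3.97, 3.36 and 2.41 RPKM in pkl, against 15.3, 17.3 and 12.2 RPKM in WT (-2.18). TPPD and TPPJ, trehalose phosphatases, fell by 2.04 and 1.12 on the log2 scale.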
